A study of Homo sapiens with 6 samples.

Results

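Serpins are a family of structurally related proteins, most of which inhibit proteases. The family members were taken as all genes in the deposited table whose symbol starts with SERPIN, leaving out 6 pseudogenes, and 35 of the 35793 genes listed met that rule. They were measured by RNA sequencing on day 15 of differentiation in cardiomyocytes derived from WTC11, an established human line of induced pluripotent stem cells kept in MTESR1 medium. The wild-type group was the unedited WTC11 line. The STK25 knockout group came from an isogenic WTC11 derivative made homozygous for a disrupted STK25, a serine/threonine kinase gene, with CRISPR/Cas9. Neither group received a treatment, and all cells were kept in RPMI 1640 with B27 once differentiated. Each genotype had 3 biological replicates, so there were 6 libraries. A single knockout line was used, so the edit and any other difference between the lines cannot be told apart, and p-values measure the spread between differentiations of these lines.

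A serpin that inhibits a protease offers it an exposed loop as bait. When the protease cuts the loop, the serpin snaps into a new shape that traps the enzyme, and both partners are used up. The family is divided into lettered clades. Most clade A, C, D, F and G proteins are secreted and act in blood and tissue fluid, clade B proteins stay mainly inside cells, clade E proteins restrain plasminogen activation, and SERPINH1 has no protease target and instead helps collagen to fold in the endoplasmic reticulum. In the heart the family is known for inhibitors that limit fibrin breakdown and for the collagen chaperone SERPINH1.

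The libraries held 22443904 to 53224112 reads on genes. STK25 checked the labels: its wild-type libraries had 8874, 6774 and 8710 normalized counts (reads divided by a factor per library) and its knockout libraries 3906, 3434 and 3820, with a log2 fold change of -1.12 (SE 0.19, limma adjusted p = 0.00903, and 0.0609 without wild-type replicate 1). Across all genes, wild-type replicate 2 and knockout replicate 1 deviated from their groups in the same direction (Pearson r of the deviations 0.448 across genes, which are not independent). All 14 cardiomyocyte markers listed passed the filter, and their summed level was 1387134 to 1688481 in the wild type and 1939678 to 3433203 in the knockout. The highest sums were in wild-type replicate 2 and knockout replicate 1. MYL2, PLN and NKX2-5 were the markers in that list that passed the test, all lower in the knockout. These were 3 of 14 tested, where 6.79% of all genes tested were called lower. Among other cell types, 5 of 6 smooth muscle markers rose, where 5.97% of all genes tested were called higher, with sums of 83548 to 96190 normalized counts in the wild type and 495646 to 543358 in the knockout. Of the epithelial, neural, endothelial, epicardial, blood and pluripotency lists, with 6 to 9 tested genes each, 0 to 3 genes rose and 0 to 1 fell per list, where 12.8% of all genes tested were called in either direction. In the neural list 3 of 6 tested genes rose, beside 5.97% of all genes tested, and in the blood list 0 were called. The epicardial and mesothelial sum was 16232 to 17752 normalized counts in the wild type and 7062 to 10117 in the knockout, the one list among these 6 whose knockout sums all lay below the wild type. That list's median log2 fold change was 0.16, and 3 of its 7 tested genes were fitted below 0. Knockout sums all lay above the wild type for the epithelial list (123020 to 129046 against 279529 to 310487), the pluripotency list (1041 to 1129 against 3123 to 4512), the neural list (454 to 466 against 1092 to 1369.8) and the endothelial list (1300.5 to 1412 against 2132 to 2986). Median log2 fold changes were -0.20 (epithelial), 0.21 (pluripotency), 1.61 (neural) and 1.19 (endothelial). In the epithelial list 5 of the 9 tested genes were fitted below 0, although its sum was higher. The part of these marker lists in the results below was not tested.

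Of the 35 serpin genes, 12 had no read in any library, 8 had a few reads and a mean under 10 normalized counts, and 15 reached a mean of 10 and were tested. Over all 248006307 reads, 0 reads allows a level of up to 0.0121 RPM (3 reads, counting error only). The silent genes were 8 of the 11 clade A members and 4 of the 13 clade B members. In clade A they were SERPINA2, SERPINA3, SERPINA4, SERPINA6, SERPINA7, SERPINA9, SERPINA11 and SERPINA12, which include the liver-made hormone carriers SERPINA6 (corticosteroid-binding globulin) and SERPINA7 (thyroxine-binding globulin). In clade B they were SERPINB3, SERPINB4, SERPINB12 and SERPINB13, which are known from squamous epithelium.

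**Figure D1:**
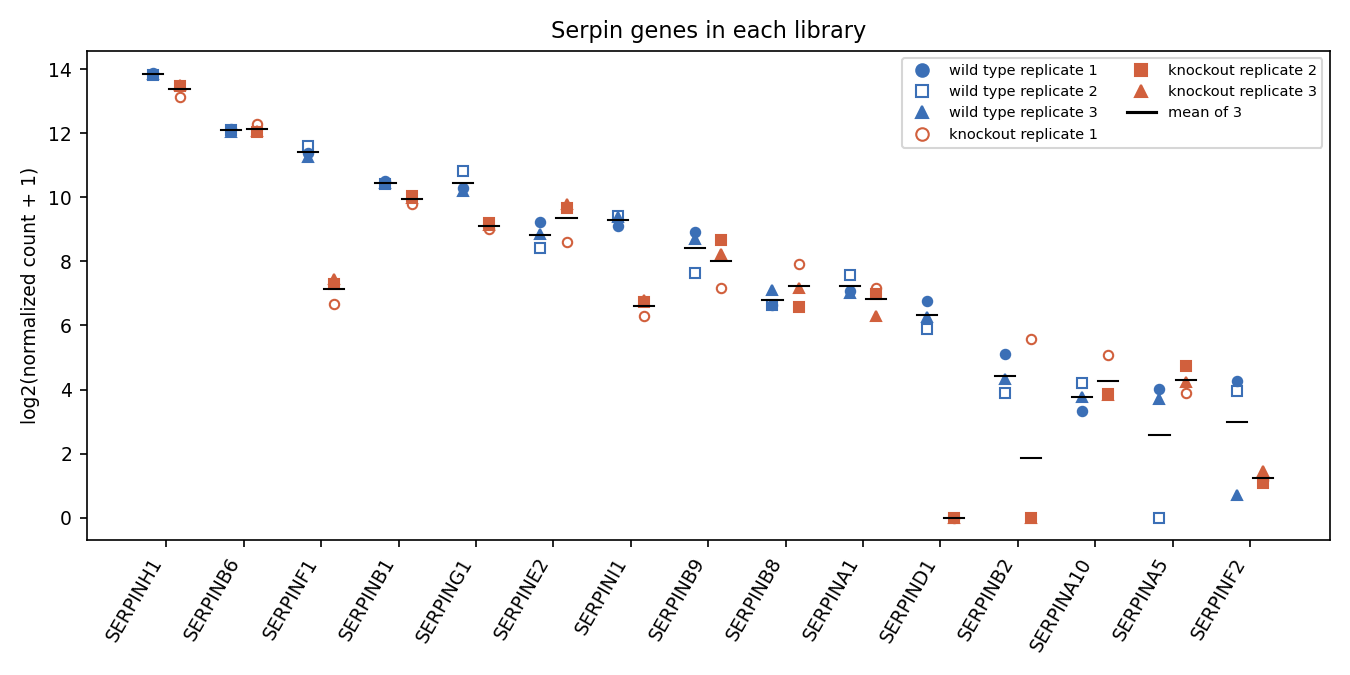
Each symbol is a library, placed by log2(normalized count + 1) on the vertical axis for 15 serpin genes with a mean of at least 10 in either genotype, ordered by mean level. Bars are means of the 3 log2 values, and open symbols are wild-type replicate 2 and knockout replicate 1. SERPINF1, SERPING1, SERPINI1 and SERPIND1 have all knockout libraries well below all wild-type libraries, whereas SERPINB6 is level.

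Among the 15 tested genes 4 fell in the knockout and 0 rose, with an adjusted p under 0.05 in limma's test over all 15536 genes tested. The 4 were SERPINF1, SERPIND1, SERPINI1 and SERPING1. They make up 26.7% of the tested serpins, against 12.8% of all genes tested that were called in either direction, 6.79% that were called lower and 5.97% that were called higher. At an unadjusted p under 0.05 there were 7 serpins, all with negative fitted values, beside 4275 of the 15536 genes tested in either direction. With edgeR, 4 serpins were again called lower and 0 higher. The median log2 fold change of the tested serpins was -0.46, beside 0.0052 over all genes. In 7 genes every knockout library lay below every wild-type library and in 0 the reverse held, against 17.2% of all tested genes with the former pattern, 16.2% with the latter and 33.4% with either. The tested genes passed a filter on their mean, so these counts describe the detected serpins only.

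**Figure D2:**
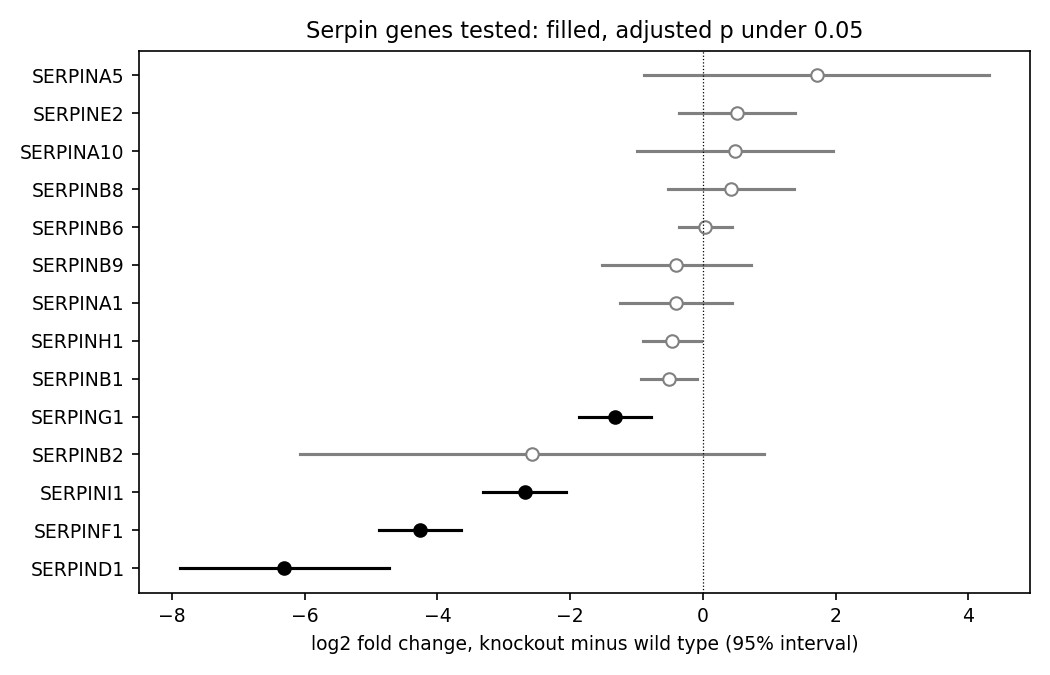
Points are log2 fold changes of 14 of the 15 tested serpin genes, knockout minus wild type, with the 95% interval of limma's fit as a line. Filled points had an adjusted p under 0.05, and these 4 lie at -1.33 to -6.31, while the interval of SERPINB6 runs from -0.36 to 0.43. The fitted value of SERPIND1, at 0 in the knockout, depends on the pseudocount.

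SERPINF1 encodes pigment epithelium-derived factor, a secreted glycoprotein that has lost protease inhibition and is known for restraining blood vessel growth and for bone mineralization. The gene (ENSG00000132386.10) lies on the plus strand of chromosome 17 from 1761959 to 1777574. Its normalized counts were 2654, 3103 and 2434 in wild-type replicates 1 to 3 and 102, 155 and 175 in the knockout. All wild-type libraries were high and all knockout libraries low, with no overlap. The mean went from 2730 ± 341 to 144 ± 37.9 (SD, n = 3 each), or 5.27% of the wild-type mean. The log2 fold change was -4.27 (SE 0.27, limma adjusted p = 0.000179). The gene next to it, SERPINF2, encodes alpha-2-antiplasmin, the main plasmin inhibitor of blood. It had 18.1, 14.5 and 0.638 normalized counts in the wild type and 1.27, 1.11 and 1.78 in the knockout, which overlapped and stood below the filter, so it was not tested.

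SERPIND1 encodes heparin cofactor II, a thrombin inhibitor that is switched on by dermatan sulfate and heparin and is made chiefly by liver. The gene (ENSG00000099937.10) lies on the plus strand of chromosome 22 from 20773879 to 20787720, inside the gene PI4KA, which runs on the opposite strand. It had 109, 57.9 and 76.5 normalized counts in the wild type, resting on 72, 76 and 120 reads. All knockout libraries had 0 reads. The wild-type mean of 81.1 ± 25.7 (SD, n = 3) was at least 24.8-fold higher than the knockout, taking 3 reads in each knockout library as the floor (limma adjusted p = 0.00142). The submitters' strand setting is not given in the sources used here, so reads of the overlapping genes may not be told apart. PI4KA itself had 1930.3, 964 and 3232 normalized counts in the wild type and 1291, 1782 and 1881 in the knockout, with overlapping groups (log2 fold change -0.16, SE 0.42, limma adjusted p = 0.857).

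Genes of endoderm and liver were looked at beside SERPIND1, because fewer cells of a type and less RNA per cell cannot be told apart in bulk libraries. Of 16 markers, 7 were tested, 1 was called higher and 2 lower, beside 5.97% and 6.79% of all genes tested, with a median log2 fold change of -2.39. Their summed level was 1993 to 3240.1 normalized counts in the wild type and 1717 to 1879 in the knockout. FGB, a fibrinogen chain, had 60.4, 11.4 and 42.7 normalized counts in the wild type and 0 in every knockout library (limma adjusted p = 0.0121, and up to 0.0771 without wild-type replicate 1 or 3). AFP, alpha-fetoprotein, had 122, 44.9 and 145 in the wild type and 2.54, 0 and 3.55 in the knockout (limma adjusted p = 0.00661). APOB, the called gene in the other direction, had 4.53, 0 and 0.638 in the wild type and 411, 440.3 and 247 in the knockout. ALB was at 0 in wild-type replicates 1 and 2 and knockout replicates 2 and 3, and FOXA2 was at 0 in all libraries. Like SERPIND1, FGB, AFP and APOB reached the filter on the mean through a single genotype. Low genes that reach it this way differ between genotypes by construction. Their calls, and in part the list's median, follow from that filter. The part of these markers in the SERPIND1 result was not tested.

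The promoter of SERPIND1 is shown because the gene had reads only in the wild type. The window is RefSeq's sequence on GRCh38.p14, chr22:20773863-20774162 on the plus strand, from 250 bases before RefSeq's start site to 50 after it. That start site, at 20774113, lies 234 bases inside the gene as GENCODE draws it. Capitals mark CAAAGTTCA, the core letters of sites read by the liver factor HNF4, searched on both strands and starting 43 bases before RefSeq's start site.
SERPIND1: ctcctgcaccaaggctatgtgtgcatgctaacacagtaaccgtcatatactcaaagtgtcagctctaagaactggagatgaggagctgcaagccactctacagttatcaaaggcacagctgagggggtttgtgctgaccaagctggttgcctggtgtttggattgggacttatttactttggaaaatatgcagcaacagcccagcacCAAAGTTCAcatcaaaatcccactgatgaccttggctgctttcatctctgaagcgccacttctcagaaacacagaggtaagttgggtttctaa
Of 35116 promoter windows of that length, 0.296% held these letters. Among the serpins the window of SERPINA7, which had no read in any library, held them as well. HNF4A was itself low, with 3.02, 6.09 and 11.5 normalized counts in the wild type and 3.81, 13.4 and 10.7 in the knockout, and the groups overlapped. The motif was chosen after the sequence was seen, and a match is a description only.

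SERPINI1 encodes neuroserpin, a secreted inhibitor of tissue plasminogen activator best known from neurons. The gene (ENSG00000163536.12) lies on the plus strand of chromosome 3 from 167735243 to 167825568. Its normalized counts were 545, 682 and 663 in the wild type and 77.5, 106 and 109 in the knockout. The knockout libraries were all low and did not overlap with the wild type. The mean went from 630.1 ± 74.1 to 97.6 ± 17.4 (SD, n = 3 each), 6.46-fold lower, with a log2 fold change of -2.69 (SE 0.27, limma adjusted p = 0.00113).

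SERPINI1 is of added interest here because its head-to-head neighbour is PDCD10, which encodes an adaptor protein that binds STK25 and its relatives. The GENCODE starts of the genes lie 304 bases apart on opposite strands, and this was the one such pair within 1 kb among the serpin genes with a mean of 10 in either genotype. PDCD10 had 2322, 2953 and 1909.9 normalized counts in the wild type and 3567, 2774 and 3429 in the knockout. Its groups overlapped, and its log2 fold change was 0.46 (SE 0.22, limma adjusted p = 0.234). With wild-type replicate 2 and knockout replicate 1 both left out, a choice made after seeing the data, PDCD10 passed at 0.55 (limma adjusted p = 0.0360). The 95% interval of the SERPINI1 change was -3.32 to -2.06.

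The SERPINI1 promoter is shown because the gene fell and its window repeats a motif. It is RefSeq's window on GRCh38.p14, chr3:167735471-167735770 on the plus strand. RefSeq's start site, at 167735721, lies 478 bases inside the gene as GENCODE draws it, so the window holds none of the stretch between the GENCODE starts of SERPINI1 and PDCD10. In it capitals mark the E-box CAGCTG, whose letters read the same on both strands.
SERPINI1: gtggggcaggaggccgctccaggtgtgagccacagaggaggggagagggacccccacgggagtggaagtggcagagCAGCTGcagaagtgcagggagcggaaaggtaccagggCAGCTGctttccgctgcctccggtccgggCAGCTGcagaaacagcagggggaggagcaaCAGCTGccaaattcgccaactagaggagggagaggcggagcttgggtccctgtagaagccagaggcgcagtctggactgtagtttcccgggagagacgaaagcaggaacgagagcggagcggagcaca
The window held 4 such E-boxes, from 174 to 78 bases before the RefSeq start site and so within the GENCODE gene. Of the 35116 windows, 17.9% held at least 1 and 0.0313% at least 4. This motif, too, was chosen after the sequence was seen.

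SERPING1 encodes C1 inhibitor, which blocks the complement proteases C1r and C1s, factor XII and plasma kallikrein, and whose transcription rises with interferon. The gene (ENSG00000149131.15) lies on the plus strand of chromosome 11 from 57597387 to 57614853. It had 1248, 1801 and 1169 normalized counts in the wild type and 515, 581 and 555 in the knockout. The wild-type libraries were spread 1.54-fold and the knockout libraries 1.13-fold, and the groups did not overlap. The mean went from 1406 ± 344 to 550.3 ± 33.2 (SD, n = 3 each), with a log2 fold change of -1.33 (SE 0.23, limma adjusted p = 0.0105). Of its targets, C1S had 834, 610.1 and 806 normalized counts in the wild type and 131, 379 and 406 in the knockout, which did not overlap but missed the threshold (log2 fold change -1.44, limma adjusted p = 0.0737). C1R had a log2 fold change of -1.14 (limma adjusted p = 0.594).

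The gene next to SERPING1 at lower coordinates, UBE2L6, encodes an enzyme that attaches the interferon-induced modifier ISG15. It fell as well, from 3031, 4099 and 3211 normalized counts in the wild type to 628, 392 and 598 in the knockout (log2 fold change -2.69, SE 0.25, limma adjusted p = 0.000765). The genes on the other side did not pass the test: CLP1 had a log2 fold change of 0.34 (limma adjusted p = 0.306) and YPEL4 of 0.67 (limma adjusted p = 0.658).

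**Figure D3:**
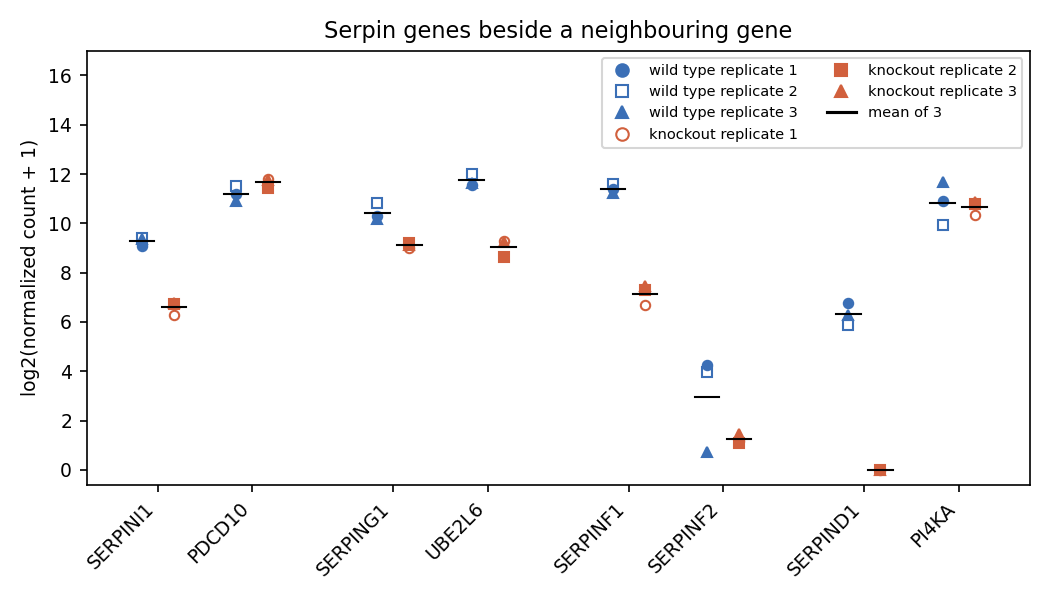
Symbols are libraries, placed by log2(normalized count + 1), for SERPINI1, SERPING1, SERPINF1 and SERPIND1, each beside a gene it adjoins or lies in (PDCD10, UBE2L6, SERPINF2 and PI4KA). Open symbols are wild-type replicate 2 and knockout replicate 1. Bars are means of 3. SERPINI1 is lower in the knockout while PDCD10 overlaps, SERPING1 and UBE2L6 are both lower, and SERPIND1 is at 0 while PI4KA overlaps.

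SERPINH1 encodes HSP47, the collagen chaperone, and lies on the plus strand of chromosome 11 from 75562056 to 75572783. Its normalized counts were 15056, 14330.1 and 14603 in the wild type and 9007, 11449.9 and 11622 in the knockout. The wild-type libraries lay close together, and every knockout library was lower, knockout replicate 1 most of all. The log2 fold change of -0.46 (SE 0.19, 95% interval -0.90 to -0.03) had an unadjusted p of 0.0390 and a limma adjusted p of 0.155, so it did not pass the threshold over all genes.

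HSP47 is known as a heat shock gene, and its promoter is shown because it carries the site that heat shock factors read. The window is RefSeq's on GRCh38.p14, chr11:75562003-75562302 on the plus strand, and capitals mark the heat shock element, alternating TTC and GAA blocks, searched on both strands, which starts 76 bases before RefSeq's start site, itself 197 bases inside the gene as GENCODE draws it.
SERPINH1: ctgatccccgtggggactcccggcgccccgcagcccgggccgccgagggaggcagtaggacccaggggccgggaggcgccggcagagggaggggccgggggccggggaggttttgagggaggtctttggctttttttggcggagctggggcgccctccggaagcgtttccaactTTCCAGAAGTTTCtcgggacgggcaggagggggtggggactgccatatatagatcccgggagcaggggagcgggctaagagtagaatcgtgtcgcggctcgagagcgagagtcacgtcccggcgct
Of the 35116 windows, 0.490% held this element. Among the 41 windows that matched 27 of the 35 serpin genes, this was the only one with it. The element was chosen after the sequence was seen.

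Genes whose proteins fold and modify collagen together with HSP47 were counted next. Of 22 listed, 21 were in the table and tested, and 1 rose and 4 fell, beside the 12.8% of all genes called. CRTAP, part of the collagen prolyl 3-hydroxylation complex, had 2741, 2633 and 2524 normalized counts in the wild type and 859, 988 and 1142 in the knockout (log2 fold change -1.41, SE 0.19, limma adjusted p = 0.00342). FKBP10, a prolyl isomerase that works with HSP47, had 1137, 1417 and 975 in the wild type and 319, 275 and 329.7 in the knockout (log2 fold change -1.92, SE 0.23, limma adjusted p = 0.00231). P3H4, another partner of the hydroxylase, fell from 3038 ± 81.7 to 1307 ± 225 (SD, n = 3 each). In these 3, taken from the called genes, every knockout library lay below every wild-type library, as in 17.2% of all genes tested. The call of P3H4 was lost with the replicate number as a block (limma adjusted p = 0.0553).

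KDELR3 encodes a receptor that returns chaperones such as HSP47 to the endoplasmic reticulum. It had 639, 574 and 701 normalized counts in the wild type and 45.8, 20.1 and 8.89 in the knockout (log2 fold change -4.90, SE 0.55, limma adjusted p = 0.00167). P4HA3, a prolyl 4-hydroxylase subunit, was the gene that rose, from 3.02, 0.762 and 0.638 to 41.9, 85.8 and 58.7 (limma adjusted p = 0.00506). The abundant members P4HB (log2 fold change 0.15, limma adjusted p = 0.777) and PPIB (0.13, limma adjusted p = 0.831) did not pass, and the list's median log2 fold change was 0.15. With equal library totals that median was -0.13.

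The clade E genes restrain plasminogen activators. SERPINE2 encodes protease nexin-1, a cell-surface inhibitor of thrombin and urokinase, and spans 223975112 to 224039319 of chromosome 2 (minus strand). Its normalized counts were 595, 339.7 and 466 in the wild type and 386, 809 and 886 in the knockout. Knockout replicates 2 and 3 exceeded every wild-type library and knockout replicate 1 did not (log2 fold change 0.52, SE 0.38, limma adjusted p = 0.428). The value was 0.89 without knockout replicate 1. SERPINE3 was at 0 to 7.11 normalized counts.

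The plasminogen activators themselves did not pass the test in all 6 libraries. PLAT, tissue plasminogen activator, had 151, 141 and 158 normalized counts in the wild type and 109, 458 and 590.1 in the knockout (log2 fold change 1.04, limma adjusted p = 0.310, and 1.79 with a limma adjusted p of 0.00765 without knockout replicate 1). PLAU, urokinase, had 75.5, 0 and 43.4 in the wild type and 11.4, 169 and 293 in the knockout (limma adjusted p = 0.418). In PLAT, PLAU and SERPINE2 the lowest library of each genotype was wild-type replicate 2 or knockout replicate 1. The summed level of 12 fibroblast and stromal markers had its lowest values in the same libraries, 16373 normalized counts in wild-type replicate 2 and 11220.2 in knockout replicate 1, against 26001 and 31396 in the other wild-type and 21566 and 17683 in the other knockout libraries. Of the 11 tested genes of that list 4 rose and 1 fell, beside 5.97% and 6.79% of all genes tested. The part of these markers in the values above was not tested.

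Of the 12 genes of plasminogen activation, 9 were tested, 3 rose and 0 fell, beside 5.97% of all genes tested that were called higher and 6.79% lower, with a median log2 fold change of 0.94. S100A10 and ANXA2 form the surface complex that docks plasminogen and tissue plasminogen activator. S100A10 had 2319, 5348 and 2247 normalized counts in the wild type and 19691, 9172 and 10989.9 in the knockout (log2 fold change 2.05, SE 0.41, limma adjusted p = 0.0172). ANXA2 went from 27340 ± 1834 to 52467 ± 3696 (SD, n = 3 each), with a log2 fold change of 0.94 and an adjusted p of 0.0201 in limma. THBD, thrombomodulin, had 25.7, 24.4 and 21.7 in the wild type and 75.0, 150.5 and 88.9 in the knockout (log2 fold change 2.02, limma adjusted p = 0.0216). Each of these 3 lost its call when wild-type replicate 1 or 3 or knockout replicate 3 was left out, and ANXA2 and THBD also without knockout replicate 2 (limma adjusted p up to 0.111). ANXA2 did not pass with quantile normalization or with no filter on low values either. PLAUR, the urokinase receptor (log2 fold change 0.51, limma adjusted p = 0.321), and VTN, vitronectin, a matrix and plasma protein (0.32, limma adjusted p = 0.504), did not pass.

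The clade B genes lie in a cluster on chromosome 6 and another on chromosome 18. On chromosome 6, SERPINB6 and its neighbours SERPINB9 and SERPINB1 occupy 2832332 to 2972165. SERPINB6, a broad intracellular inhibitor, had 4471, 4423 and 4182 normalized counts in the wild type and 4964, 4179.6 and 4305 in the knockout, overlapping groups. Its log2 fold change of 0.04 had a 95% interval of -0.36 to 0.43 (limma adjusted p = 0.922), and with equal library totals it was -0.24. SERPINB1, an inhibitor of neutrophil elastase and cathepsin G, had 1449, 1372 and 1383 in the wild type and 885, 1059 and 1014 in the knockout. Its groups did not overlap, but the log2 fold change of -0.51 (SE 0.18) had a limma adjusted p of 0.117. It passed in 1 of 18 alternatives, with DESeq2 (adjusted p = 0.0347), which called more genes overall than limma or edgeR.

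SERPINB9, the granzyme B inhibitor that protects cells from cytotoxic granules, had 482, 199.6 and 418 normalized counts in the wild type and 142, 406 and 302 in the knockout. Wild-type replicate 2 and knockout replicate 1 were again the low libraries, and the groups overlapped (log2 fold change -0.40, limma adjusted p = 0.658, and 0.03 without knockout replicate 1).

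On chromosome 18, SERPINB8, an inhibitor of the convertase furin, had 99.7, 99.0 and 137 normalized counts in the wild type and 243, 94.7 and 142 in the knockout. These overlapped (log2 fold change 0.42, limma adjusted p = 0.568). SERPINB2, which encodes the urokinase inhibitor PAI-2, had 33.2, 13.7 and 19.1 in the wild type, 47.0 in knockout replicate 1 and 0 in knockout replicates 2 and 3. Its limma adjusted p was 0.323, and without knockout replicate 1 it was 0.0167, with SERPINB2 then at 0 in every knockout library. SERPINB5, SERPINB7, SERPINB10 and SERPINB11 had no more than 15.1 normalized counts in any library. SERPINB2 overlaps SERPINB10 on the same strand, and SERPINB8 overlaps HMSD likewise, so reads within each pair may be split uncertainly. HMSD had 54.4, 48.0 and 35.1 normalized counts in the wild type and 2.54, 27.9 and 15.1 in the knockout (limma adjusted p = 0.165).

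The detected clade A genes were SERPINA1, SERPINA5 and SERPINA10, all on chromosome 14. SERPINA1 encodes alpha-1-antitrypsin, the main elastase inhibitor of blood, and had 134, 191 and 128 normalized counts in the wild type and 142, 126 and 77.3 in the knockout. Its groups overlapped (log2 fold change -0.41, 95% interval -1.26 to 0.43, limma adjusted p = 0.527). SERPINA10, which inhibits activated factor X, had 9.06, 17.5 and 12.8 in the wild type and 33.0, 13.4 and 13.3 in the knockout (limma adjusted p = 0.689). SERPINA5, protein C inhibitor, had 15.1, 0 and 12.1 in the wild type and 14.0, 25.6 and 17.8 in the knockout (limma adjusted p = 0.378), and it overlaps SERPINA4 on the same strand. SERPINC1, antithrombin, had 12.3 normalized counts in knockout replicate 2 and 0 elsewhere, and SERPINI2 had 18.3 in wild-type replicate 2, 1.11 and 16.9 in knockout replicates 2 and 3 and 0 elsewhere.

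Per kilobase of the longest coding transcript, the order of levels changed between genotypes. In the wild type SERPINH1 led with 4324 ± 108 normalized counts per kb, followed by SERPINF1 with 1764 ± 220.2, SERPINB6 with 776 ± 27.5, SERPING1 with 630.04 ± 154, SERPINB1 with 535 ± 15.8 and SERPINI1 with 330.4 ± 38.8 (SD, n = 3 each). SERPINB6, SERPING1 and SERPINB1 were neighbours in that order whose SD ranges overlapped in turn. In the knockout the order was SERPINH1 with 3153 ± 431, SERPINB6 with 798 ± 74.9, SERPINB1 with 376 ± 34.5, SERPINE2 with 270.1 ± 105, SERPING1 with 247 ± 14.9 and SERPINF1 with 93.0 ± 24.5 normalized counts per kb. In the knockout the SD range of SERPINE2 overlapped those of SERPINB1 and SERPING1, and that of SERPINF1 overlapped that of SERPINB9 (68.8 ± 32.2). Per kb, SERPINF1 thus stood at rank 2 in the wild type, and at rank 6 in the knockout without being apart from rank 7. By normalized counts alone it stood at rank 3 in the wild type, below SERPINB6. Which transcript of each gene was expressed was not determined.

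**Figure D4:**
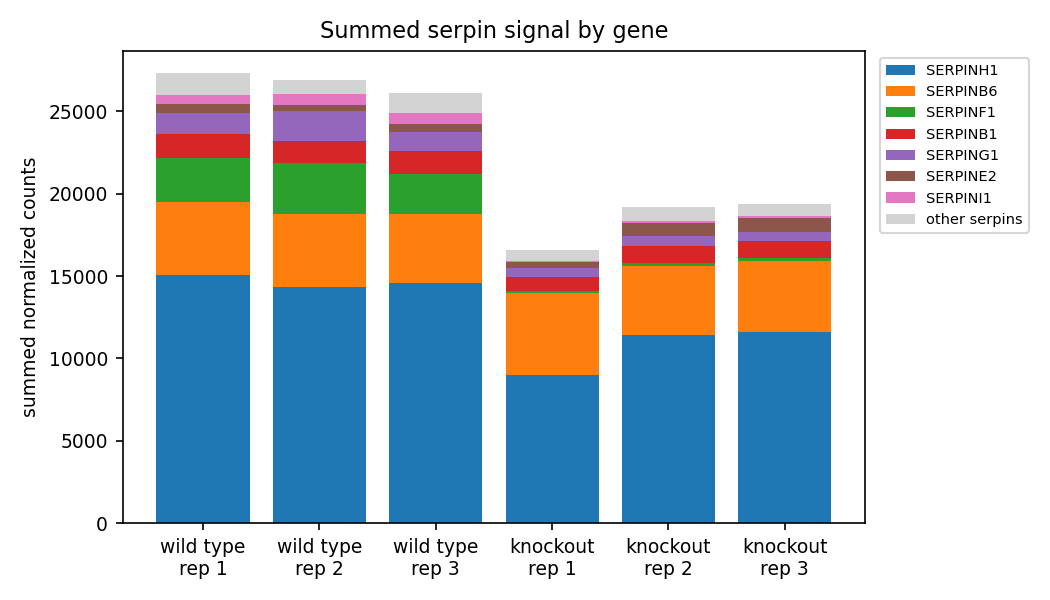
Bars stack the normalized counts of all serpin genes in each library, with 7 genes coloured and the rest in grey. The sums are 26094 to 27318 in the wild type and 16596 to 19405 in the knockout, and the SERPINF1 and SERPINI1 segments are thin in the knockout.

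Summed over all members, serpins took 0.0688% to 0.0806% of the reads in wild-type libraries and 0.0333% to 0.0494% in knockout libraries. SERPINH1 made up 53.3% to 59.9% of the summed normalized counts in all 6 libraries. Among the rest, SERPINF1 held 21.2% to 24.7% in the wild type and 1.34% to 2.25% in the knockout, while SERPINB6 held 35.2% to 36.5% in the wild type and 53.7% to 65.4% in the knockout. These shares follow from the values above and were not tested.

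The proteases that serpins inhibit were mostly low. Of 38 listed, 15 were tested, 2 rose and 2 fell, beside 12.8% of all genes called, with a median log2 fold change of 0.17. CTSV and CTSL encode lysosomal cysteine proteases that some serpins also inhibit. CTSV had 6832, 8241 and 6321 normalized counts in the wild type and 17362, 15247 and 17618 in the knockout (log2 fold change 1.24, SE 0.19, limma adjusted p = 0.00601). Its call was lost with the replicate number as a block (limma adjusted p = 0.0680). CTSL had 4667, 4889.9 and 4010.4 in the wild type and 9462, 7822 and 8136 in the knockout (log2 fold change 0.91, SE 0.18, limma adjusted p = 0.0174). F10, coagulation factor X, had 389.7, 741 and 492 in the wild type and 207, 167 and 150.2 in the knockout (log2 fold change -1.59, limma adjusted p = 0.0163). HPN, the membrane protease hepsin, had 98.2, 73.1 and 81.7 in the wild type and 14.0, 12.3 and 0.889 in the knockout (limma adjusted p = 0.0315). CTSL, F10 and HPN each lost the call in limma without wild-type replicate 3, CTSL and HPN also without wild-type replicate 1, HPN without wild-type replicate 2, and CTSL and F10 without knockout replicate 3. With a library left out, the highest limma adjusted p was 0.0859 for CTSL, 0.0671 for F10 and 0.123 for HPN. CTSL also lost its call with equal library totals and HPN with a pseudocount of 0.1. The sign of that median turned negative with equal library totals. ELANE, CTSG and GZMB, the neutrophil and lymphocyte targets of SERPINA1, SERPINB1 and SERPINB9, were at 0 to 1.27 normalized counts.

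Serpin and protease complexes are cleared by receptors of the LDL receptor family, and the activity of some serpins is raised by heparan sulfate chains. Of 22 such receptors and cofactors, all tested, 4 rose and 3 fell, beside 12.8% of all genes called, with a median log2 fold change of 0.15 that was -0.13 with equal library totals. VLDLR, which takes up serpin and protease complexes, had 1835, 1449 and 2368 normalized counts in the wild type and 5623, 8282 and 6635 in the knockout (log2 fold change 1.87, SE 0.25, limma adjusted p = 0.00314). LRP1, the main clearance receptor, had 1549.7, 1092 and 1289.8 in the wild type and 649.5, 687 and 340.4 in the knockout (log2 fold change -1.28, SE 0.31, limma adjusted p = 0.0359). LRP1B, its close relative, had 40.8, 43.4 and 28.1 in the wild type and 128, 237 and 150.2 in the knockout (log2 fold change 2.14, limma adjusted p = 0.0132). SORT1, sortilin, was the other receptor that rose (log2 fold change 1.61, limma adjusted p = 0.0295).

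The heparan sulfate carriers also went both ways. GPC3, a glypican, had 929, 751 and 1003 normalized counts in the wild type and 7240.3, 11374 and 11122 in the knockout (log2 fold change 3.45, SE 0.24, limma adjusted p = 0.000243). SDC1, syndecan-1, had 266, 189 and 239.8 in the wild type and 50.8, 69.1 and 68.4 in the knockout (log2 fold change -1.87, SE 0.32, limma adjusted p = 0.00993). GPC1, another glypican, fell (log2 fold change -1.44, limma adjusted p = 0.0167). The calls of LRP1 and LRP1B were each lost without wild-type replicates 1 or 3 or knockout replicate 3, that of LRP1 also without wild-type replicate 2 and that of LRP1B without knockout replicate 2 (limma adjusted p up to 0.150 for LRP1 and 0.0540 for LRP1B). LRP1 did not pass without a variance trend either. GPC1 lost its call without wild-type replicates 1 or 3 or knockout replicate 3 (limma adjusted p up to 0.0828). SORT1 lost its call with equal library totals, without a variance trend, and without any single library other than knockout replicate 1 (limma adjusted p up to 0.108 with a library left out). SDC1 lost its call without wild-type replicates 1 or 3, at up to 0.0651.

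**Figure D5:**
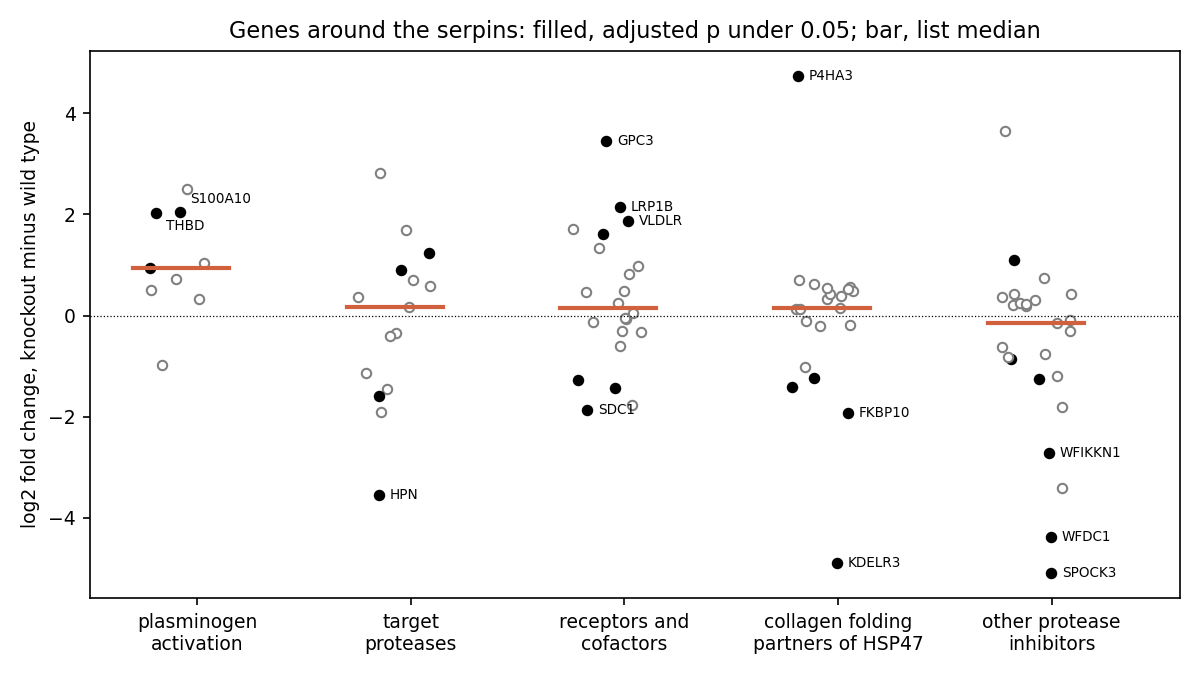
Each point is a tested gene of 5 lists around the serpins, placed by its log2 fold change, knockout minus wild type, with filled points at an adjusted p under 0.05 and a bar at the list median. The called genes go both ways in each list but plasminogen activation, whose 3 called genes lie above 0.

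Protease inhibitors outside the serpin family were counted for comparison. Of 39 listed, 25 were tested, 1 rose and 5 fell, beside 5.97% of all genes tested that were called higher and 6.79% lower, with a median log2 fold change of -0.15. WFDC1, a secreted inhibitor of the WAP family, had 292, 388 and 259.6 normalized counts in the wild type and 20.3, 20.1 and 6.22 in the knockout (log2 fold change -4.39, SE 0.52, limma adjusted p = 0.00207). WFIKKN1, which combines several inhibitor domains and binds myostatin, had 1139, 1631 and 1223 in the wild type and 126, 194 and 326 in the knockout (log2 fold change -2.71, SE 0.37, limma adjusted p = 0.00342). SPOCK3 had 61.9, 12.2 and 89.9 in the wild type and 0, 0 and 0.889 in the knockout (limma adjusted p = 0.0136), a call lost without wild-type replicates 1 or 3. TFPI2, a Kunitz inhibitor, had a log2 fold change of -1.26 (limma adjusted p = 0.0446) and did not pass when any single library was left out, with equal upper quartiles, with quantile normalization or with no filter. TFPI, the main inhibitor of the tissue factor pathway, was the gene that rose, from 287, 318 and 314 to 711, 681 and 586 (limma adjusted p = 0.0165), and BIRC5, survivin, was the other that fell (log2 fold change -0.85, limma adjusted p = 0.0170). TFPI and BIRC5 lost their calls without wild-type replicates 1 or 3 or knockout replicates 2 or 3 (limma adjusted p up to 0.0858 for TFPI and 0.0854 for BIRC5), and TFPI also with equal library totals.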

How the data were processed

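RNA of 6 libraries, 3 wild-type and 3 STK25 knockout, was measured; per the labels' protocols, cDNA synthesis used Clontech's Ultra Low v4 reagents and library preparation used NexteraXT. The deposited table gave the authors' normalized signal per gene, which is whole reads divided by 1 factor per library: 100% of values were whole multiples of that step within 0.001. The submitters' processing notes name bcl2fastq 2.19, kallisto 0.44.0, DESeq2 1.28.1 and GRCh38, without roles. Strand use is not given in the sources used here. Columns were matched by the names in the labels, and 0 were left unused. No pair of libraries of a genotype looked duplicated (chi-square over degrees of freedom 18.9 to 363).

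Tests used R 4.3.3 and limma 3.58.1 (lmFit, eBayes with a trend) on log2(value + 1). Genes needed a mean of 10 or more, and the Benjamini-Hochberg adjustment covered all 15536 of them, with a threshold of 0.05. Fold changes of low genes are understated on that scale. Alternatives on the recovered reads were edgeR 4.0.16, with 866 genes called higher and 998 lower, and DESeq2 1.42.0, with 1554 and 1656. The scripts were tested on simulated data. Positions and lengths came from GENCODE 29 on GRCh38, which held all 35 members, and promoters from RefSeq. Named are serpins with a mean of at least 10 in either genotype, the called list members with the 4 largest changes, PLAT, PLAU, PLAUR, LRP1, VTN, CTSL and STK25. Neighbouring genes, C1R, C1S, P3H4, SORT1, GPC1, TFPI, BIRC5, ELANE, CTSG, GZMB, P4HB, PPIB, marker genes and low serpins were named after their values were seen. Members and lists were chosen with earlier results of these data known. Alternatives were another pseudocount, filter or scaling, a replicate block, no trend, leaving out libraries, edgeR and DESeq2. Figures were drawn with matplotlib 3.10.9. The values of 1 tested member, which did not pass the test, are not reported here, though counts over the family include it. Reads of near-identical serpin copies could not be reassigned.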

Additional observations from a re-analysis of the deposited data

How the results depend on the processing

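SERPINF1, SERPINI1 and SERPIND1 were called lower under every alternative that tested them (18, 18 and 17), and SERPING1 under 17 of 18. The SERPING1 log2 fold change was below 0 in all 18. The replicate numbers were not taken to pair the samples. Same-numbered libraries' deviations correlated at -0.23, -0.40 and 0.17. Deviations from a mean of 3 libraries constrain each other, so these values cannot settle whether the numbers pair. With the number as a replicate block SERPING1 had a limma adjusted p of 0.0548, and 3 serpins were called lower. All genes called were then 348 higher and 450 lower, in place of 927 and 1055. STK25, FGB, P3H4, S100A10, ANXA2, THBD, CTSV, CTSL, F10 and HPN also lost their calls with this block. So did LRP1, LRP1B, SORT1, GPC1, SDC1, TFPI, TFPI2 and BIRC5. All genes called higher numbered 549 with equal totals (median log2 shift -0.27; 27.4% of calls higher, not 46.8%) and 1554 with DESeq2, which called 1656 lower. Leaving out 1 library gave 369 to 1003 higher and 397 to 1178 lower calls, 0 serpins higher and 4 to 5 lower. Leaving out wild-type replicate 2 and knockout replicate 1 together was chosen after seeing the data, and removing libraries for standing apart narrows the spread by construction. That fit called 2311 genes higher and 2172 lower, with 1 serpin higher (SERPINE2, 0.68) and 7 lower, SERPINH1 (-0.36) and SERPINB2 among those added. The SERPINB6 log2 fold change turned to -0.24 with equal totals, -0.108 with quantile normalization, and -0.0277 without both libraries, and ranged from -0.0386 to 0.0854 with 1 library left out. The SERPINB9 log2 fold change ranged from -0.788 to 0.0314 with 1 library left out, turning without knockout replicate 1, and the SERPINB8 log2 fold change to -0.0071 without both.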
